A study of Mus musculus with 10 samples.

Results

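Chemokines are small secreted proteins that draw leukocytes along a gradient by binding receptors of the G protein-coupled class. In injured muscle, Ccl2 and Ccl7 bring monocytes out of the blood through the receptor Ccr2, and the monocytes become macrophages that clear dead fibres and support regeneration. The 9 genes described here are 6 ligands of the CC family (Ccl2, Ccl6, Ccl7, Ccl8, Ccl9 and Ccl11), the receptor Ccr2 and 2 ligands of the CXC family (Cxcl12 and Cxcl14). They were taken as every probe set whose platform annotation names 1 of these genes and no other, dim probe sets included, which gave 11 of the 12422 probe sets and 9 of the 8251 genes on the array. Cxcl12 had 3 probe sets and each other gene had 1.

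Expression was measured with 1-colour Affymetrix arrays in gastrocnemius, a calf muscle, of male mice 16 weeks old. The groups were 5 arrays from mdx mice and 5 from normal mice (control). The mdx strain carries a mutation in the dystrophin gene that stops translation early, in every cell of the body, and its muscle fibres degenerate and regenerate. The labels give neither the strain of the control mice nor whether each array stands for its own animal. The p-values therefore describe array-to-array spread, part of which may be technical.

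The labels were checked on the dystrophin transcript and on fibre markers. The probe set for Dmd, the dystrophin gene, read 797 ± 147 (SD, n = 5) in control and 188 ± 33.7 (SD, n = 5) in mdx, with no overlap. All 12 muscle fibre markers lay above the detection filter on every array. Their summed intensity was 240704 to 422828 in control and 189896 to 302117 in mdx. Of the 12, 8 were called lower as deposited, with a median log2 change of -0.55, against 4 after quantile normalization and 0 with the arrays scaled to equal hybridization controls (median 0.08). Over all 7612 tested probe sets, 1352 (17.8%) were called lower as deposited, 1351 after quantile normalization and 125 with equal hybridization controls. Arrays correlated at 0.952 to 0.977 within groups and at 0.885 to 0.910 between groups. On bulk muscle, a change in the number of cells of a type and a change in RNA per cell cannot be told apart.

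Of the 9 genes, 7 rose strongly in mdx muscle: Ccl8, Ccl9, Ccl2, Ccl6, Ccr2, Cxcl14 and Ccl7, in falling order of their log2 change. Ccl11, which attracts eosinophils, stood at the same intensity in both groups. The 3 probe sets of Cxcl12, a chemokine made constantly by stromal cells, gave small changes of opposite direction. In the fit over 7612 probe sets, 8 of the 11 were called higher and 2 lower in mdx, against 15.8% called higher, 17.8% called lower and 33.6% called in either direction among all tested probe sets. The groups did not overlap for 9 of the 11, against 25.1% of all tested. The median log2 change over the 9 genes, each by its brightest probe set, was 1.83, against -0.03 over all tested probe sets. Ccl7 and Ccr2 passed the filter only through their mdx arrays, so for these genes a difference was built into being tested, and Ccl2 and Ccl8 passed on some control arrays. With the arrays scaled to equal hybridization controls, 96.6% of all calls were higher in mdx, against 47.1% as deposited, and the median of all probe sets moved from -0.03 to 0.35. The 9 hybridization control probe sets themselves differed by -0.64 on the log2 scale, mdx minus control, in the values as deposited.

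**Figure D1:**
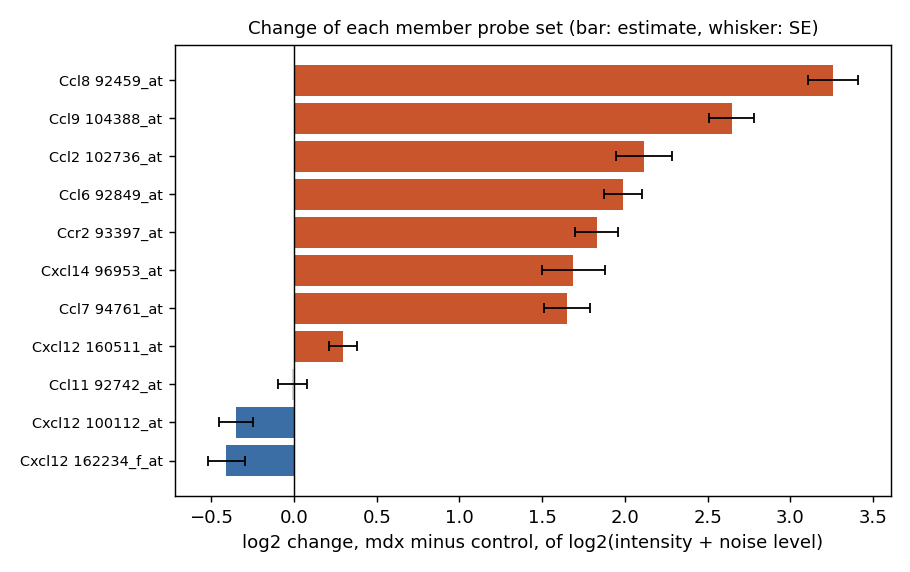
Log2 change, mdx minus control, of each of the 11 probe sets, with bars for the estimate, whiskers for its standard error, orange for called higher, blue for called lower and grey for Ccl11, whose bar is near 0. The 7 genes at the top lie between 1.65 and 3.26, and the 3 probe sets of Cxcl12 lie at 0.30, -0.35 and -0.41.

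Ccl2, the main ligand of Ccr2, was near the bottom of the scale in control and bright in mdx. Its intensity on control arrays 1 to 5 was 127, 145, 59.6, 156 and 89.8. On mdx arrays 1 to 5 it was 2772, 1814, 1246, 1223 and 1987. Every control array lay below the noise level of 372, the root mean square of the values below 0, while the dimmest mdx array lay far above it. The mean went from 115 ± 40.1 to 1808 ± 636 (SD, n = 5 each), at least 4.63-fold higher in mdx against the noise level. The root mean square gives much weight to the most negative values, and against a robust estimate of 157 the bound is 10.996-fold. The log2 change was 2.12 (SE 0.17, limma adjusted p = 1.35e-06). Among all tested probe sets it was the 44th largest rise.

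Ccl7 is a second ligand of Ccr2 that also binds Ccr1 and Ccr3, and its gene lies next to Ccl2. The control arrays read -8.10, -10.9, -20.0, 11.5 and 13.0, values around 0 that show no signal over background. The mdx arrays read 1219, 826, 596, 548 and 1001. All 5 mdx arrays lay above the noise level and all 5 control arrays below it. Ccl7 rose at least 2.15-fold against that level (5.11-fold against the robust one), and by 1.65 on the log2 scale (SE 0.14, limma adjusted p = 2.25e-06). The mdx arrays ranked in the same order for Ccl7 as for Ccl2, highest on array 1, then 5, 2, 3 and 4, and this order was the same after scaling to equal trimmed means or quantile normalization. After scaling to hybridization controls it was 1, 2, 5, 4 and 3, again for both genes.

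Ccl8 showed the largest rise of the 9 genes and the 11th largest of all tested probe sets. In the mouse it acts through Ccr8. Its intensities were 25.5, -32.5, 183, 173 and 145 on the control arrays. On the mdx arrays they were 5291, 4713, 4057, 3153 and 3761. The lowest mdx array was thus far above the highest control array, and all control arrays were below the noise level. Ccl8 went from 98.8 ± 96.6 to 4195 ± 831 (SD, n = 5 each), at least 11.1-fold higher. On the log2 scale Ccl8 rose by 3.26 (SE 0.15, limma adjusted p = 1.63e-08).

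Promoter sequence was at hand for 6 of the 9 genes, from RefSeq on GRCm38.p6. The 250 bases before each start were searched on both strands for 4 motifs. These were TATAAA (the TATA motif), GAGGAA (a core bound by the myeloid factor PU.1), TGANTCA (the motif of AP-1) and the kappaB consensus by name. They occur in 12.4%, 23.3%, 6.75% and 7.25% of the 32851 promoters of the table. The Ccl8 window, shown because this gene changed most, is chr11:82115085-82115184 on the plus strand, the 100 bases up to the start, with TATAAA in capitals.
Ccl8: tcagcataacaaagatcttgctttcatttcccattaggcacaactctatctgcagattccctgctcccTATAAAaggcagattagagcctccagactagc
The TATAAA begins 32 bases before the start. A GAGGAA match on the minus strand begins 240 bases before it, outside the bases shown. No match to the 4 motifs was present in the 250 bases of Ccr2, Ccl6, Cxcl12 or Cxcl14.

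Ccl9 and Ccl6 are neighbouring genes of 1 subgroup of CC ligands, made by myeloid cells and acting through Ccr1. Ccl9 read 185, 443, 402, 232 and 429 on the control arrays and 4002, 4521, 3273, 3656 and 4812 on the mdx arrays. Of the control arrays, 2 were below the noise level and 3 a little above it, and every mdx array was far above. The mean was 338 ± 121 in control and 4053 ± 625 in mdx (SD, n = 5 each). It rose by 2.64 on the log2 scale (SE 0.13, limma adjusted p = 2.62e-08), the 19th largest rise.

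Ccl6 was above the noise level on all 10 arrays. It read 382, 493, 587, 477 and 496 in control and 3601, 3396, 2291, 2665 and 3388 in mdx. The groups were widely apart, and the spread within mdx was small beside the difference. The mean rose from 487 ± 72.9 to 3068 ± 561 (SD, n = 5 each), a ratio of 6.30, and by 1.99 on the log2 scale (SE 0.12, limma adjusted p = 1.05e-07).

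The upstream sequences of these neighbours are shown because both genes rose and because they share runs of bases. The 100 bases before the start of Ccl9 are chr11:83578637-83578736, and those of Ccl6 are chr11:83593088-83593187, both on the minus strand of GRCm38.p6. Capitals mark TATAAA on either strand and the runs of 12 or more bases found in both.
Ccl9: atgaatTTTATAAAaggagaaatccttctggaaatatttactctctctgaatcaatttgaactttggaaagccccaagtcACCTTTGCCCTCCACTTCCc
Ccl6: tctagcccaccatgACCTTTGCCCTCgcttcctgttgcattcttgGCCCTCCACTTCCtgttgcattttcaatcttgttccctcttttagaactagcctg
The shared runs are ACCTTTGCCCTC, of 12 bases, and GCCCTCCACTTCC, of 13. In Ccl9 they overlap at the end next to the start, and in Ccl6 they stand apart, beginning 86 and 55 bases before it. No other pair of the 6 genes shared a run of this length within 100 bases of the start. TATAAA begins 92 bases before the start of Ccl9, overlapped by a match on the other strand. Another match, on the minus strand, begins 224 bases before the start, outside the bases shown. The same Ccl9 window holds TGANTCA 53 bases and a kappaB match 35 bases before the start.

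**Figure D2:**
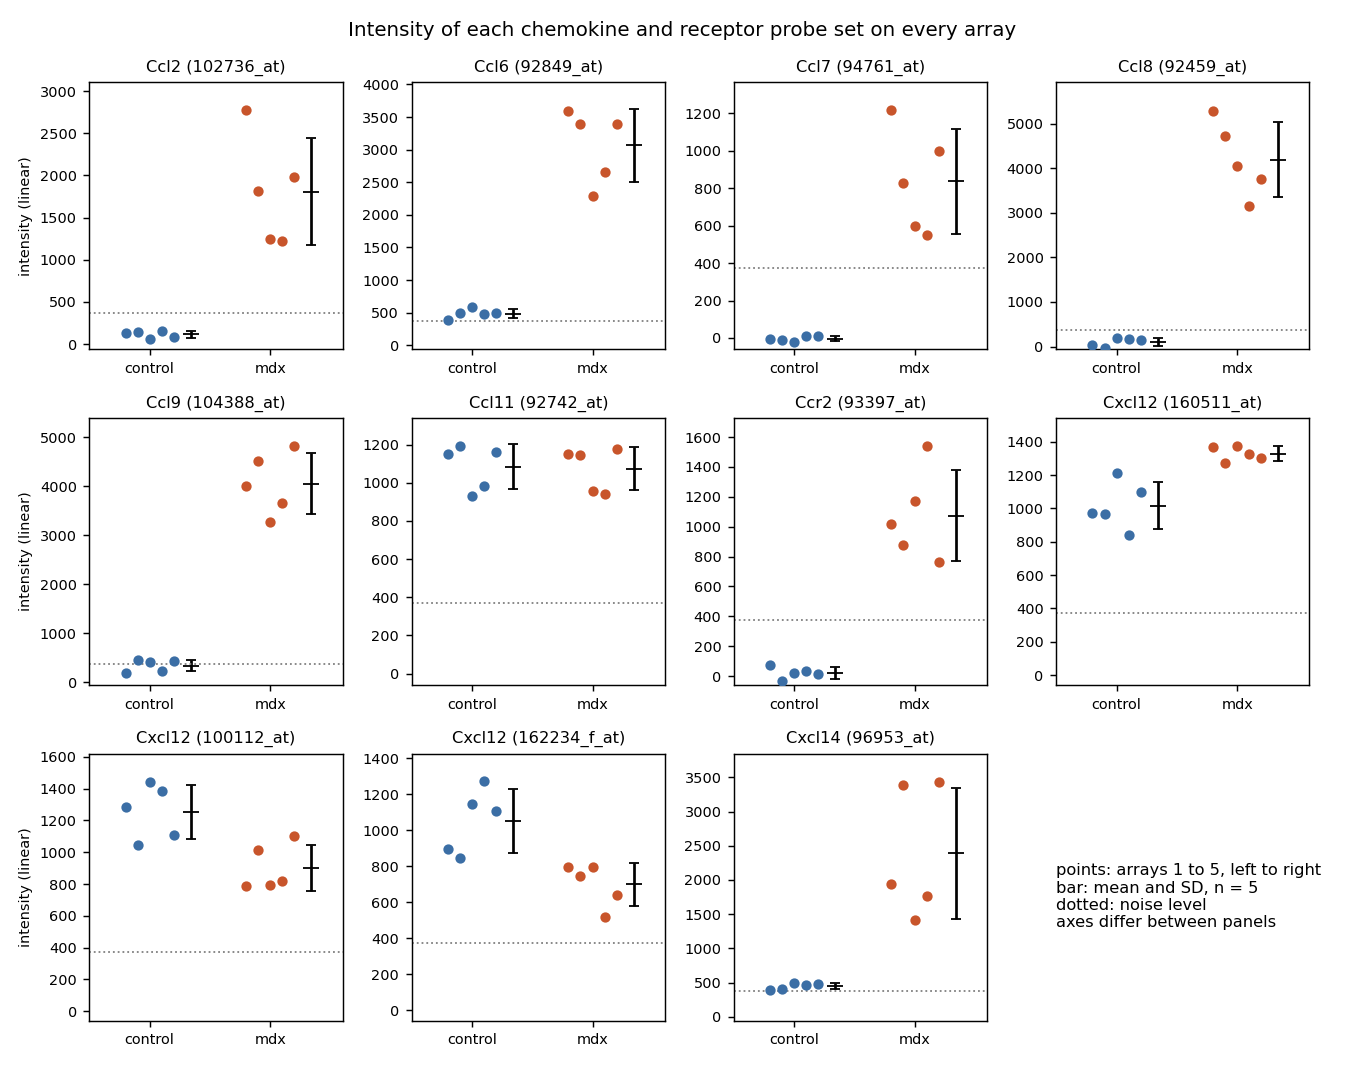
Linear intensity of the 11 probe sets on each control array (blue) and mdx array (orange), with the mean and SD of 5 arrays as a bar and the noise level as a dotted line; axes differ between panels. Ccl2, Ccl7, Ccl8 and Ccr2 lie below the noise level on every control array and above it on every mdx array, while the Ccl11 groups overlap throughout their range.

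Ccl11, or eotaxin, attracts eosinophils through Ccr3, and its gene lies between Ccl7 and Ccl12. The control arrays read 1151, 1195, 932, 982 and 1161. The mdx arrays read 1152, 1145, 959, 941 and 1177. The groups overlapped throughout, and in both the arrays numbered 3 and 4 were the lowest. The mean was 1084 ± 119 in control and 1075 ± 115 in mdx (SD, n = 5 each). The log2 change was -0.01 (SE 0.09, limma adjusted p = 0.950), and it became 0.46 and was called higher (limma adjusted p = 0.0157) with the arrays scaled to equal hybridization controls. Of the 4 eosinophil markers with a probe set, 3 lay below the noise level on every array, and the summed intensity of the 4 was 165 to 571 in control and 184 to 470 in mdx.

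Ccr2, the receptor that monocytes use to leave the blood, was near 0 in control. The control arrays read 71.4, -34.9, 21.0, 36.6 and 15.0, none of them above the filter. The mdx arrays read 1019.5, 880.004, 1171, 1542 and 762. All mdx arrays were above the noise level, with array 4 the highest and array 5 the lowest. The mean rose from 21.8 ± 38.5 to 1075 ± 303 (SD, n = 5 each), at least 2.80-fold, or 6.65-fold against the robust noise level. The log2 change was 1.83 (SE 0.13, limma adjusted p = 5.63e-07), the 63rd largest rise.

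Most markers of monocytes and macrophages were higher in mdx than in control. Of the 17 of them that were tested, 15 rose and none fell, with a median log2 change of 2.12. Over all tested probe sets, 15.8% were called higher and 17.8% lower as deposited. With the arrays scaled to equal hybridization controls, 46.3% of all tested were called higher. Cd53, 1 of the 15, was above the filter on no control array, so a difference was built into its being tested. Tested second probe sets of Csf1r and C1qb changed by 0.01 and 0.08 and were not called. A further 4 markers were too dim to be tested. The summed intensity of the 21 macrophage markers with a probe set was 6909 to 10531 in control and 59261 to 77741 in mdx. Fibroblast markers summed to 59851 to 72427 in control and 94392 to 109427 in mdx, with 7 of 12 called higher and 2, Pdgfra at -0.27 and Dcn at -0.34, called lower. With the arrays scaled to equal hybridization controls 11 were called higher and 0 lower, and Dcn was called higher there and after quantile normalization. The value for Pdgfra is that of its brightest probe set. Its other probe sets changed by 1.52 and -0.15, so no single direction is given for Pdgfra. None of 6 tested neutrophil markers passed, though S100a8 and Camp did with the arrays scaled to equal hybridization controls. T cell markers summed to 827 to 1590 in control and 245 to 503 in mdx, but 9 of the 10 lay below the noise level on every array. The 2 that were tested, Cd4 at -0.89 and Cd28 at -0.47, were called lower, against 1 with hybridization control scaling. Both were above the filter on 5 control arrays and on 1 mdx array. Endothelial markers summed to 7612 to 9761 in control and 6111 to 7457 in mdx. Of 9 tested, 2 were called lower and 0 higher, against 0 lower and 2 higher with hybridization control scaling. The 2 of 9 called lower is near the 17.8% over all tested probe sets. The part of these cell types in the chemokine values was not tested.

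Cxcl14 attracts monocytes and dendritic cells and is made by many tissues. It read 397, 401, 486, 463 and 478 in control, just above the noise level on every array. In mdx it read 1944, 3394, 1419, 1759 and 3430.2. Within mdx, arrays 2 and 5 stood well above the other arrays, and the highest was 2.42 times the lowest. The mean rose from 445 ± 43.0 to 2389 ± 953 (SD, n = 5 each), a ratio of 5.37, and by 1.69 on the log2 scale (SE 0.19, limma adjusted p = 2.58e-05). Its coefficient of variation within mdx was 39.9%, close to the 35.2% of Ccl2.

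Cxcl12 holds blood cell precursors and other leukocytes in place through Cxcr4, and its transcripts have alternative ends; RefSeq lists 3 curated ones. The probe set 160511_at represents the gene as the brightest over all 10 arrays, although its control mean of 1017 is the lowest of the 3, the others being 1253 and 1052. Counting Cxcl12 as higher follows from that choice, and with the probe set of smallest p 7 genes were higher. It read 972, 965, 1212, 838 and 1100.3 in control and 1366, 1270.2, 1377, 1324 and 1302 in mdx. Every mdx array was above every control array, and the mdx arrays lay close together. The mean rose from 1017 ± 143 to 1328 ± 44.4 (SD, n = 5 each), a ratio of 1.31, and by 0.30 on the log2 scale (SE 0.08, limma adjusted p = 0.0164).

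The other probe sets of Cxcl12 went the opposite way. The probe set 100112_at read 1284, 1043, 1444, 1383 and 1110.2 in control and 791, 1016, 792, 820.3 and 1100.1 in mdx, so that mdx array 5 lay within the control range and the other mdx arrays below it. Its log2 change was -0.35 (SE 0.10, limma adjusted p = 0.0199), and it was 0.13 with the arrays scaled to equal hybridization controls. With the replicate number as a block it was no longer called (limma adjusted p = 0.0693). The probe set 162234_f_at read 896, 846, 1144, 1271 and 1105 in control and 796, 745, 797, 516 and 642 in mdx, without overlap. Its log2 change was -0.41 (SE 0.11, limma adjusted p = 0.0133), and it was 0.035 with the arrays scaled to equal hybridization controls.

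The disagreement among the Cxcl12 probe sets was tested within arrays, where array scaling largely cancels. The log2 value of 160511_at minus that of 100112_at was -0.23 ± 0.21 in control and 0.42 ± 0.19 in mdx (SD, n = 5 each), a shift of 0.65. The exact permutation test, two-sided, gave p = 0.00794, the smallest that 5 arrays against 5 allow, and 0.0119 adjusted over the 3 pairs. For 160511_at minus 162234_f_at the shift was 0.71, with the same exact p. The pair 100112_at and 162234_f_at shifted by 0.06 (exact permutation p = 0.667). Which transcript each probe set reads was not tested, so no single direction is given for Cxcl12.

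Among the mdx arrays as deposited, the ligands were high and low on the same arrays, and Ccr2 was highest where they were low. Of the 7 ligands other than Cxcl12, 0 were above their own mdx mean on array 3 and 0 on array 4, while 5, 7 and 6 were above it on arrays 1, 2 and 5. The median deviation of these ligands from their mdx mean was 0.22, 0.15, -0.29, -0.31 and 0.16 on the log2 scale for arrays 1 to 5. That of Ccr2 was -0.03, -0.18, 0.12, 0.43 and -0.33. Ccr2 was highest on arrays 4 and 3, where every ligand was below its mean. With equal trimmed means, quantile normalization or equal hybridization controls, again 0 of the 7 were above their mean on arrays 3 and 4, and Ccr2 was highest on array 4. The order of single ligands did move with hybridization control scaling, where Ccl6 and Ccl8 were highest on array 2 and Ccl9 and Cxcl14 were lower on array 1 than on array 4. The summed macrophage markers were highest on arrays 4 and 3, at 77741 and 76048, and lowest on array 1, at 59261. Array 1 is also the one whose trimmed mean is low as deposited, at 723 against 801 on each other mdx array, and with equal trimmed means its sum was 64992, still the lowest. The pattern was seen after the values were known, and the relation was not tested.

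**Figure D3:**
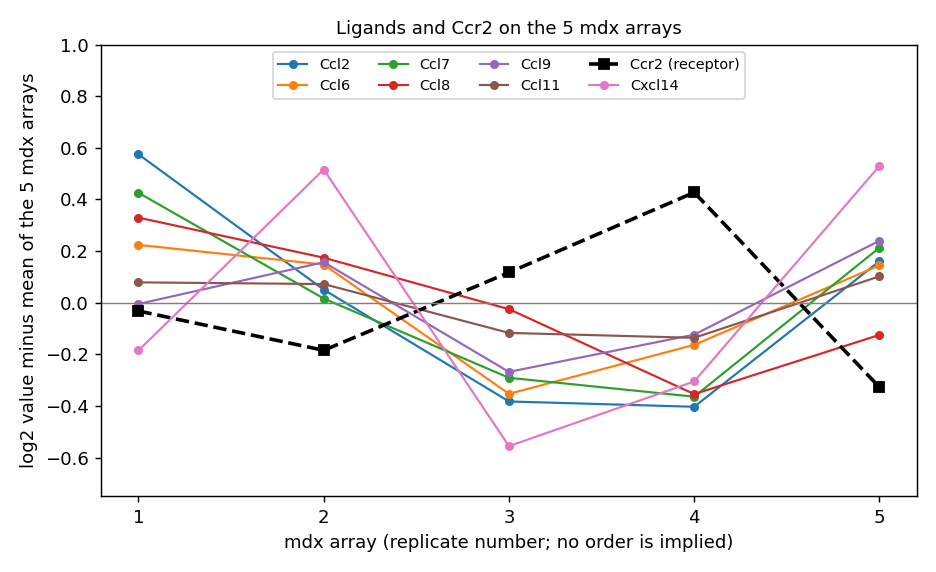
Deviation of each ligand (coloured lines) and of Ccr2 (dashed black line) from its mean over the 5 mdx arrays, on the log2 scale, for mdx arrays 1 to 5; lines join the values of a gene and imply no order of arrays. All 7 ligands lie below 0 on arrays 3 and 4, where Ccr2 lies at 0.12 and 0.43.

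The rises were not shared by all neighbours of these genes. Along chromosome 11 the order in the RefSeq table is Ccl2, Ccl7, Ccl11, Ccl12, Ccl8 and Ccl1. Ccl2, Ccl7 and Ccl8 rose, Ccl11 and Ccl12, another Ccr2 ligand, did not pass the test, and Ccl1 was too dim to be tested. Ccl12 changed by -0.14 (SE 0.26, limma adjusted p = 0.723), from 330 ± 239 in control to 266 ± 178 in mdx (SD, n = 5 each), a spread too wide to show a small change. In a further stretch of chromosome 11 the order is Ccl5, Ccl9, Ccl6, Ccl3 and Ccl4. Ccl9 and Ccl6 rose, Ccl3, a Ccr1 ligand, changed by 0.22 (SE 0.34, limma adjusted p = 0.662), and Ccl5 and Ccl4 were too dim to be tested.

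**Figure D4:**
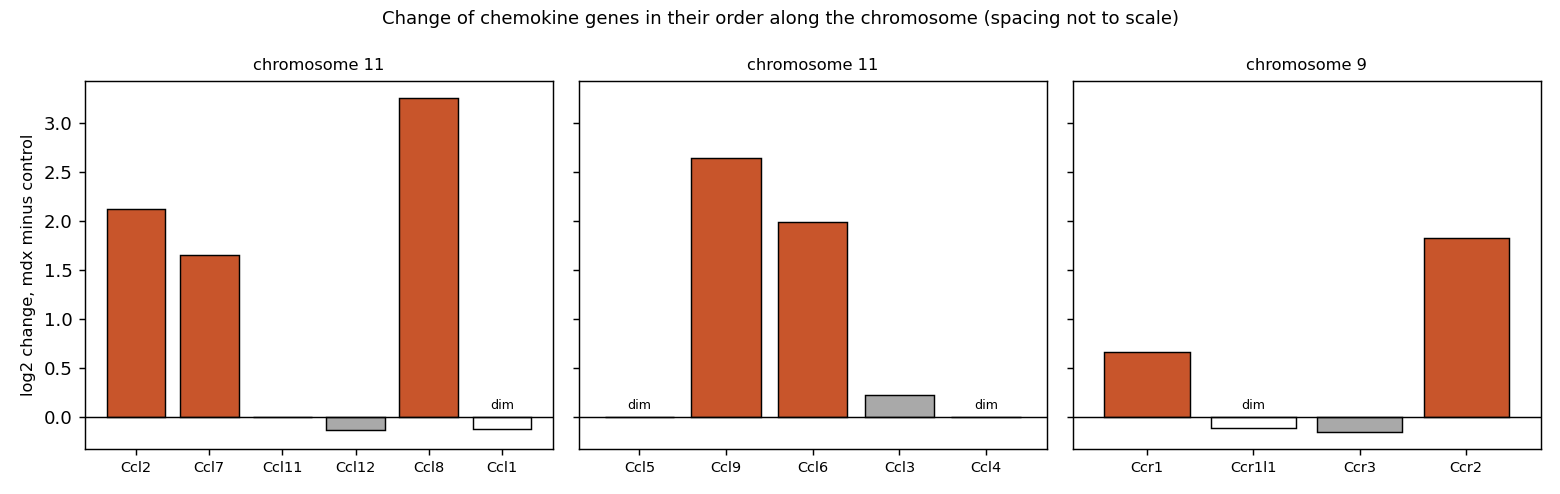
Log2 change, mdx minus control, of chemokine and receptor genes in their order along chromosomes 11 and 9, spacing not to scale; orange bars were called higher, grey bars were tested and not called, and white bars marked dim were below the filter. Ccl2, Ccl7 and Ccl8 at 2.12, 1.65 and 3.26 flank Ccl11 and Ccl12, at -0.01 and -0.14.

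On chromosome 9, Ccr2 follows Ccr1, Ccr1l1 and Ccr3 in that order. Ccr1, the receptor of Ccl6, Ccl7 and Ccl9, rose by 0.66 on the log2 scale (SE 0.10, limma adjusted p = 1.76e-04). Its intensity was -33.6 to 51.6 in control and 166 to 360 in mdx (medians -12.9 and 217), without overlap but below the noise level on every array, so no fold is given. It passed the filter only through its mdx arrays, so a difference was built into its being tested. Ccr3, the receptor of Ccl11, changed by -0.16 (limma adjusted p = 0.470). Ccr8 was below 0 on every array of both groups, so its level cannot be read here.

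Over the other chemokine receptors, 1 of 11 tested rose and none fell, and 5 of 11 were called higher with the arrays scaled to equal hybridization controls. Over all tested probe sets the share called higher was 15.8% as deposited and 46.3% with that scaling. The receptors of Cxcl12 are Cxcr4 and Ackr3. Cxcr4 was too dim for the filter, at 33.6 ± 21.6 in control and 200 ± 43.8 in mdx (SD, n = 5 each). In the fit with no filter, where 19.9% of 12422 probe sets were called, it rose by 0.49 (limma adjusted p = 4.27e-04). Ackr3, which takes up Cxcl12, went from 332 ± 92.3 to 464 ± 36.6, a change of 0.26 that did not pass (limma adjusted p = 0.0709). With the arrays scaled to equal hybridization controls Ackr3 was called higher. Ackr1 and Ackr2, which bind and take up many CC ligands, both changed by -0.09 (limma adjusted p = 0.679 and 0.818).

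Of 28 other chemokine ligands, 17 had a probe set and 4 were bright enough to be tested, and none of the 4 passed, though Ccl22 and Cxcl1 did with the arrays scaled to equal hybridization controls. Their median log2 change was 0.13. In the fit with no filter, Cxcl9, a ligand of Cxcr3 on T cells, was called higher by 0.26 (limma adjusted p = 0.00293), at -3.41 ± 50.4 in control and 95.9 ± 24.3 in mdx, both under the filter.

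**Figure D5:**
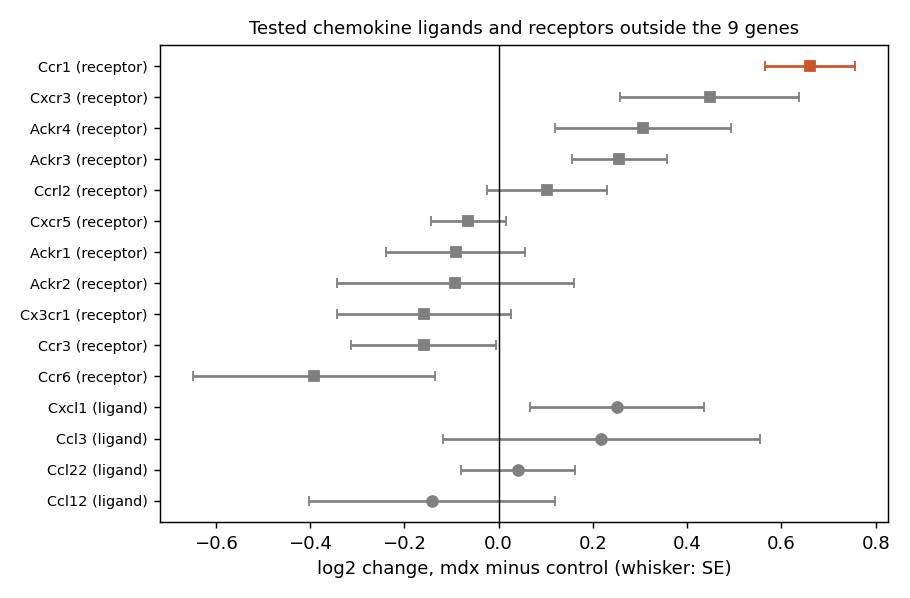
Log2 change, mdx minus control, with its standard error as whiskers, of the 15 tested chemokine receptors (squares) and ligands (circles) outside the 9 genes. Ccr1 (orange), at 0.66, was the one called, and the others lie between -0.39 and 0.45.

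Genes of monocyte adhesion and passage through the vessel wall rose in part. Of 13 tested, 6 rose and none fell, with a median log2 change of 0.23, and 10 were called higher with hybridization control scaling. Over all tested probe sets the share called higher was 15.8% as deposited and 46.3% with that scaling. A further 7, among them Selp, Sele, Itgam and Itga4, were too dim to be tested. The 6 were Itgb2 at 1.25, Vcam1 at 0.81, Itgax at 0.80, Selplg at 0.70, Cd47 at 0.63 and Icam1 at 0.61. Itgb2 and Itgax encode leukocyte integrin chains, Selplg a selectin ligand, and Vcam1 and Icam1 adhesion molecules of endothelium. The other probe sets of Vcam1 changed by 0.34 and 0.11. Vcam1 and Icam1 were above the filter on no control array, so for both a difference was built into being tested. Of the endothelial markers, Flt1 at -0.61 and Vwf at -0.54 were called lower as deposited and not with hybridization control scaling.

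Of 10 tested inducers and relays of chemokine transcription, 4 rose and none fell, against 9 called higher with hybridization control scaling and 3, without Il1r1, after quantile normalization. Over all tested probe sets, 15.8% were called higher as deposited and 46.3% with hybridization control scaling. The 4 that rose were Stat6 at 0.95, the tumour necrosis factor receptors Tnfrsf1a at 0.64 and Tnfrsf1b at 0.60, and the interleukin 1 receptor Il1r1 at 0.33. A further 9 were too dim to be tested. Among these were the cytokines Il1a, Il1b, Tnf, Il6, Ifng, Il4 and Il13, whose levels cannot be read here. Of 8 tested proteases that cut chemokines, 7 were higher and none lower as deposited, against 15.8% higher over all tested probe sets. The median log2 change of the 8 was 1.16, and the same 7 were called higher under each of the 4 scalings. A further 4 were too dim to be tested, and Mmp12 and Mmp13 passed the filter only through their mdx arrays. The 4 with the smallest p were Ctss at 3.63, Mmp12 at 2.47, Ctsl at 1.07 and Mmp3 at 1.67. Dpp4, which trims the start of Ccl11 and Cxcl12, was the one that did not pass, at -0.09 (limma adjusted p = 0.408).

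Likeness was measured as the root mean square difference over the 10 arrays of log2 values, each taken from the control mean, among 5767 genes. It depends largely on the size of the change between groups. A small difference therefore need not mean that genes vary together among the arrays of a group. The gene most like Ccl2 was Ccl6, at 0.22, followed by Ankrd1 and Timp1. Nearest to Ccl6 were Plac8, at 0.17, Anxa2 and Col6a3, and nearest to Ccl7 were Mmp3, at 0.17, Skap2 and Mrc1. Ccl8 had no gene closer than 0.31, and its nearest were Igf2, Myl4 and Tyrobp. Ccl9 lay nearest to Cfl1, at 0.15, then Mmp12 and Mpeg1. Ccr2 lay nearest to Pld3, at 0.16, then Tnnt2 and C1qtnf3. Cxcl14 lay nearest to Hp, at 0.13, then Col15a1 and Mmp3. For Ccl11 the nearest were Pabpc2, Dcaf8l and Cyp51, and for the brightest Cxcl12 probe set Irf7, Acp2 and Nsmce3. The lists mix markers of macrophages (Mpeg1, Tyrobp, Mrc1) with genes of regenerating fibres (Myl4, Tnnt2) and of matrix (Col6a3, Col15a1). These are descriptions over the same 10 arrays and were not tested.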

How the data were processed

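The deposited table holds linear intensities, 1 per probe set and array. The software, background correction and scaling are not given in the sources used here. Between 19.7% and 23.9% of values on an array were below 0, and trimmed means (2% off each end) were 723 to 801. Their largest deviation from the median was 9.70%, on mdx array 1, only just within the 10% allowed. The scaling was therefore kept as deposited, and each level is relative to the rest of its array. The number of arrays limits the precision. Of 12488 probe sets, 66 controls were left out. Genes came from the platform annotation, updated by gene number with the RefSeq table of GRCm38.p6 (10833 probe sets with 1 gene, 396 with several, 1193 with none).

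Changes are on the scale log2(intensity + 372.4), with negative intensities raised to 0 first and 372.4 (the noise level) the root mean square of the values below 0. This makes changes of dim genes look smaller than they are. A group with all 5 arrays below this noise level has only a bound: "at least" folds set the brighter group's mean on the log2 scale against it. A probe set was tested if above 134 (the 40th percentile) on at least 5 of 10 arrays, which left 7612. The test was that of limma 3.58.1 under R 4.3.3 (lmFit, eBayes with a variance trend, two-sided, Benjamini-Hochberg over 7612, threshold 0.05), tested on simulated data. Dim genes come from the same fit without the filter. Alternatives changed the scaling, the noise level, the filter, the variance trend, the replicate block and the arrays included.

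The members and gene lists were chosen with earlier results of these data known. The rule named every member, the called genes of each pathway list (the 4 with the smallest p where over 6 were called), the receptors of member ligands, and the 3 genes most like each member. The brightest probe set represents a gene. Marker lists were summed without a test.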

Additional observations from a re-analysis of the deposited data

How the results depend on the processing

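Under each of 20 alternatives, Ccl2, Ccl6, Ccl7, Ccl8, Ccl9, Ccr2, Cxcl14 and the Cxcl12 probe set 160511_at were called higher. Their log2 changes ranged from 1.54 to 2.81 (Ccl2), 1.62 to 2.45 (Ccl6), 1.06 to 2.58 (Ccl7), 2.53 to 4.10 (Ccl8), 2.15 to 3.11 (Ccl9), 1.22 to 2.71 (Ccr2), 1.35 to 2.13 (Cxcl14) and 0.24 to 0.78 (160511_at). The median over the 9 genes was 2.38 with 0.5 times the noise level, 1.35 with 2 times, 2.58 with a noise level of 157 estimated robustly (an alternative chosen after seeing the data) and 2.13 with equal hybridization controls. That scaling left 0 probe sets of the 11 lower, made 2 other ligands and 5 other receptors higher, and turned Ccl11 to 0.46, 100112_at to 0.13 and 162234_f_at to 0.035. Scaling to equal trimmed means gave Ccl11 0.013, and leaving out 1 array at a time gave -0.048 to 0.025, on either side of 0. Without the filter, 1 other ligand and 2 other receptors were higher, and with the stricter filter 0 receptors. Leaving out 1 array gave 1 to 3 receptors higher (3 without control array 1, 2 without mdx array 4) and 0 to 1 lower (1 without control array 3). The replicate numbers did not pair the arrays: deviations of same-numbered arrays correlated at -0.16 to 0.04. With the replicate number as a block, 1 of the 11 probe sets was lower and 2238 of all were called, against 2554. Dim control values limit every fold given as at least.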
